A study of Mus musculus with 6 samples.

Results

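The genes described here are 10 imprinted genes linked to growth, *Meg3*, *Dlk1*, *H19*, *Igf2*, *Peg3*, *Rian*, *Mirg*, *Cdkn1c*, *Grb10* and *Mest*, out of 16557 genes found in any of 6 tumors. They were listed by name, and were chosen by their UMI counts and their shares of positive cells in the tumor cells and the other cells of these tumors. Levels in tumor cells set against other cells are therefore given as a description, with no test. The samples were single-cell libraries of 6 mouse rhabdoid tumors, each from 1 mouse, that lack *Smarcb1*, a core subunit gene of the SWI/SNF chromatin remodeling complex. The 3 MYC spinal tumors, called spinal 1, 2 and 3 here, came from *Rosa26*-cre mice aged 19, 26 and 17 weeks. The 3 eRT (extracranial rhabdoid tumors) were eRT 1, from the gland of a *Rosa26*-cre mouse aged 17 weeks, and eRT 2 and 3, from the jaw and shoulder of *Sox2*-cre mice aged 29 and 22 weeks. All mice carried 2 floxed *Smarcb1* alleles, deleted by tamoxifen (50 mg/kg) at embryonic day 6.5 through a Cre driven by the ubiquitous *Rosa26* locus or by the *Sox2* promoter. These are the sample labels' names, and in the study's methods both drivers are the tamoxifen-inducible forms, *Rosa26-creERT2* and *Sox2-creERT2*. Subtype and mouse model are thus partly confounded, and eRT 1 is the sole *Rosa26*-cre eRT.

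An imprinted gene is read mainly from the copy of 1 parent, under the control of DNA methylation set in the germ line. Imprinted genes tend to lie in clusters that regulate growth of the embryo and placenta, and many are turned down in most tissues after birth. *Dlk1*, a transmembrane ligand related to those of Notch, is read from the paternal copy, and the long non-coding RNAs *Meg3*, *Rian* and *Mirg* from the maternal copy of the same region. *Igf2*, a growth factor of the embryo, and *H19*, a non-coding RNA, form a similar pair of opposite parental origin. UMIs (unique molecular identifiers, each a captured transcript) carry no parental origin here, so the values describe levels and not imprinting.

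Of the 10 genes, 4 share a region of chromosome 12 (GRCm38). *Dlk1* lies there at 109452823 to 109463336, *Meg3* at 109541001 to 109571726, *Rian* at 109603940 to 109661716 and *Mirg* at 109729764 to 109749460, all on the plus strand. *Dlk1* ends 77.7 kb before *Meg3*. On chromosome 7, *H19* (142575529 to 142578143), *Igf2* (142650766 to 142666816) and *Cdkn1c* (143458339 to 143461050) are all on the minus strand, with 72.6 kb between *H19* and *Igf2*. *Peg3* lies elsewhere on chromosome 7 (6703892 to 6730431), *Grb10* on chromosome 11 (11930508 to 12038683) and *Mest* on chromosome 6 (30723547 to 30748465).

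Several of these genes are hosts of microRNAs, and the RefSeq table for GRCm38.p6 places 41 mature microRNAs within their bounds on the same strand. *Mirg* held 26 of them, *Rian* 6, *Meg3* 3, and *H19*, *Igf2* and *Mest* 2 each. They had 40 different seeds (bases 2 to 8), with 1 seed shared by 2 microRNAs, both of *Mirg*. The libraries captured polyadenylated transcripts and did not measure mature microRNAs. The sequences show what lies within the bounds of the host genes, with exons and introns not told apart. Those of the hosts whose levels differed most between tumors are given first, followed by the *Meg3* one and the pair with a common seed, with the seed in capitals.
miR-675-5p (*H19*): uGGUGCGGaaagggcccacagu
miR-675-3p (*H19*): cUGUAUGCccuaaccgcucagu
miR-483-5p (*Igf2*): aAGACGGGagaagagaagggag
miR-335-5p (*Mest*): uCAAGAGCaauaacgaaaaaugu
miR-770-5p (*Meg3*): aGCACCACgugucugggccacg
miR-453 (*Mirg*): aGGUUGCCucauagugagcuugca
miR-496a-5p (*Mirg*): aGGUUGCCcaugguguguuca

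The RefSeq promoter table (250 bases before to 50 after a start, GRCm38.p6) held 15 windows of 8 members, *H19* and *Cdkn1c* not being among its entries. Both strands were searched for TGCCGC, or GCGGCA on the other strand, the core of the element bound by the imprint-maintaining zinc finger protein ZFP57, and for TGACGTCA, the palindromic cAMP response element. TGCCGC was found in 5 windows of 4 members, and in 11.6% of all 32851 windows. The *Mest* windows with it overlap (starts at 30737800 and 30737803) and hold the same sites. TGACGTCA was found in 2 windows, of *Meg3* and *Peg3*, and in 1.79% of all windows. The first windows of *Meg3* and *Dlk1*, the pair with the highest levels in most tumors, are shown with matches in capitals. *Meg3* (chr12:109540746-109541045, plus strand) has GCGGCA at -190 and TGACGTCA at -57 from the start, and *Dlk1* (chr12:109452573-109452872, plus strand) has neither.
*Meg3*: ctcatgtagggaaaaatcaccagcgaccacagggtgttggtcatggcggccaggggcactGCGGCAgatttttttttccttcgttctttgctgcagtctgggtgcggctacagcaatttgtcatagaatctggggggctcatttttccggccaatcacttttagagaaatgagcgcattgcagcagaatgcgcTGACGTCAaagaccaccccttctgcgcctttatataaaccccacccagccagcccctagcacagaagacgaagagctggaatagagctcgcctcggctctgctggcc
*Dlk1*: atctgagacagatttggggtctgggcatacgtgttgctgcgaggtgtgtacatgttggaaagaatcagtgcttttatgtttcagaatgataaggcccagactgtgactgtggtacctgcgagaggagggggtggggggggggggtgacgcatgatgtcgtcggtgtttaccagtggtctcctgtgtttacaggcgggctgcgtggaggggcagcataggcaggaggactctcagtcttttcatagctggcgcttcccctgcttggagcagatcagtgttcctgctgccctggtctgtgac

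Of 22163 cells kept, 2573 were tumor cells, taken as the clusters whose *Smarcb1* UMIs fell short of 0.25 times the number expected at the rate of immune-like cells. There were 97, 16 and 1563 tumor cells in spinal 1, 2 and 3 and 68, 202 and 627 in eRT 1, 2 and 3, with 45279 to 8411633 UMIs in all per tumor. The median tumor cell held 2056 to 6142 UMIs and the median other cell 915 to 5177. *Smarcb1* stood at 0 to 6.41 CPM (UMIs of a gene per 1000000 UMIs, after adding up all cells of 1 kind in a tumor) in tumor cells and at 25.1 to 59.4 CPM in immune-like cells, a description of how the cells were chosen. In spinal 2 its count of 0 allows up to 66.3 CPM, and the tumor cells of spinal 2 also held 15703 CPM of the 7 neutrophil markers, against 2.98 to 858 CPM in the other tumors. The part of these in the values of spinal 2 was not tested. Tumor cells carried all 6 fibroblast markers, with a summed level of 611 to 3114 CPM against 2.02 to 194 CPM in other cells. Those of eRT 1 also held 1603 CPM of epithelial markers (4 of 6 with UMIs), against 6.71 CPM in its other cells and 15.9 to 221 CPM in the tumor cells of the other tumors, and the part of such cells in the values of eRT 1 was not tested.

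Of the 10 genes, 9 had UMIs in at least 1 tumor, and *Meg3*, *Dlk1* and *Grb10* had UMIs in the tumor cells of all 6 tumors. *Rian* was in no table. A gene in fewer than 3 cells of a tumor is not listed there. Whether the annotation used for counting held *Rian* is not given in the sources used here, so its absence sets no limit on its level. *Rian* is annotated as a processed transcript, and 30 of 788 genes of this type (3.81%) are in any table, against 66.4% of protein-coding genes. *Igf2* was listed for spinal 1 and spinal 3, and *Peg3* for spinal 3, eRT 1 and eRT 3. *H19*, *Mirg* and *Mest* were listed for all tumors but spinal 2.

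Together the members made up 0.751%, 0.380% and 0.575% of the UMIs of tumor cells in spinal 1, 2 and 3 and 0.728%, 0.477% and 0.644% in eRT 1, 2 and 3. In the other cells they made up 0.000434% to 0.0208%. *Meg3* alone gave 72.5% to 92.2% of the members' tumor-cell UMIs in 5 tumors and 28.2% in spinal 1. A UMI counts a molecule by its 3′ end, so CPM values of different genes are compared without scaling by length. *Meg3* was the highest member and *Dlk1* the second in tumor cells of every tumor except spinal 1, where the order was *H19*, *Meg3*, *Igf2* and *Dlk1*.

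**Figure D1:**
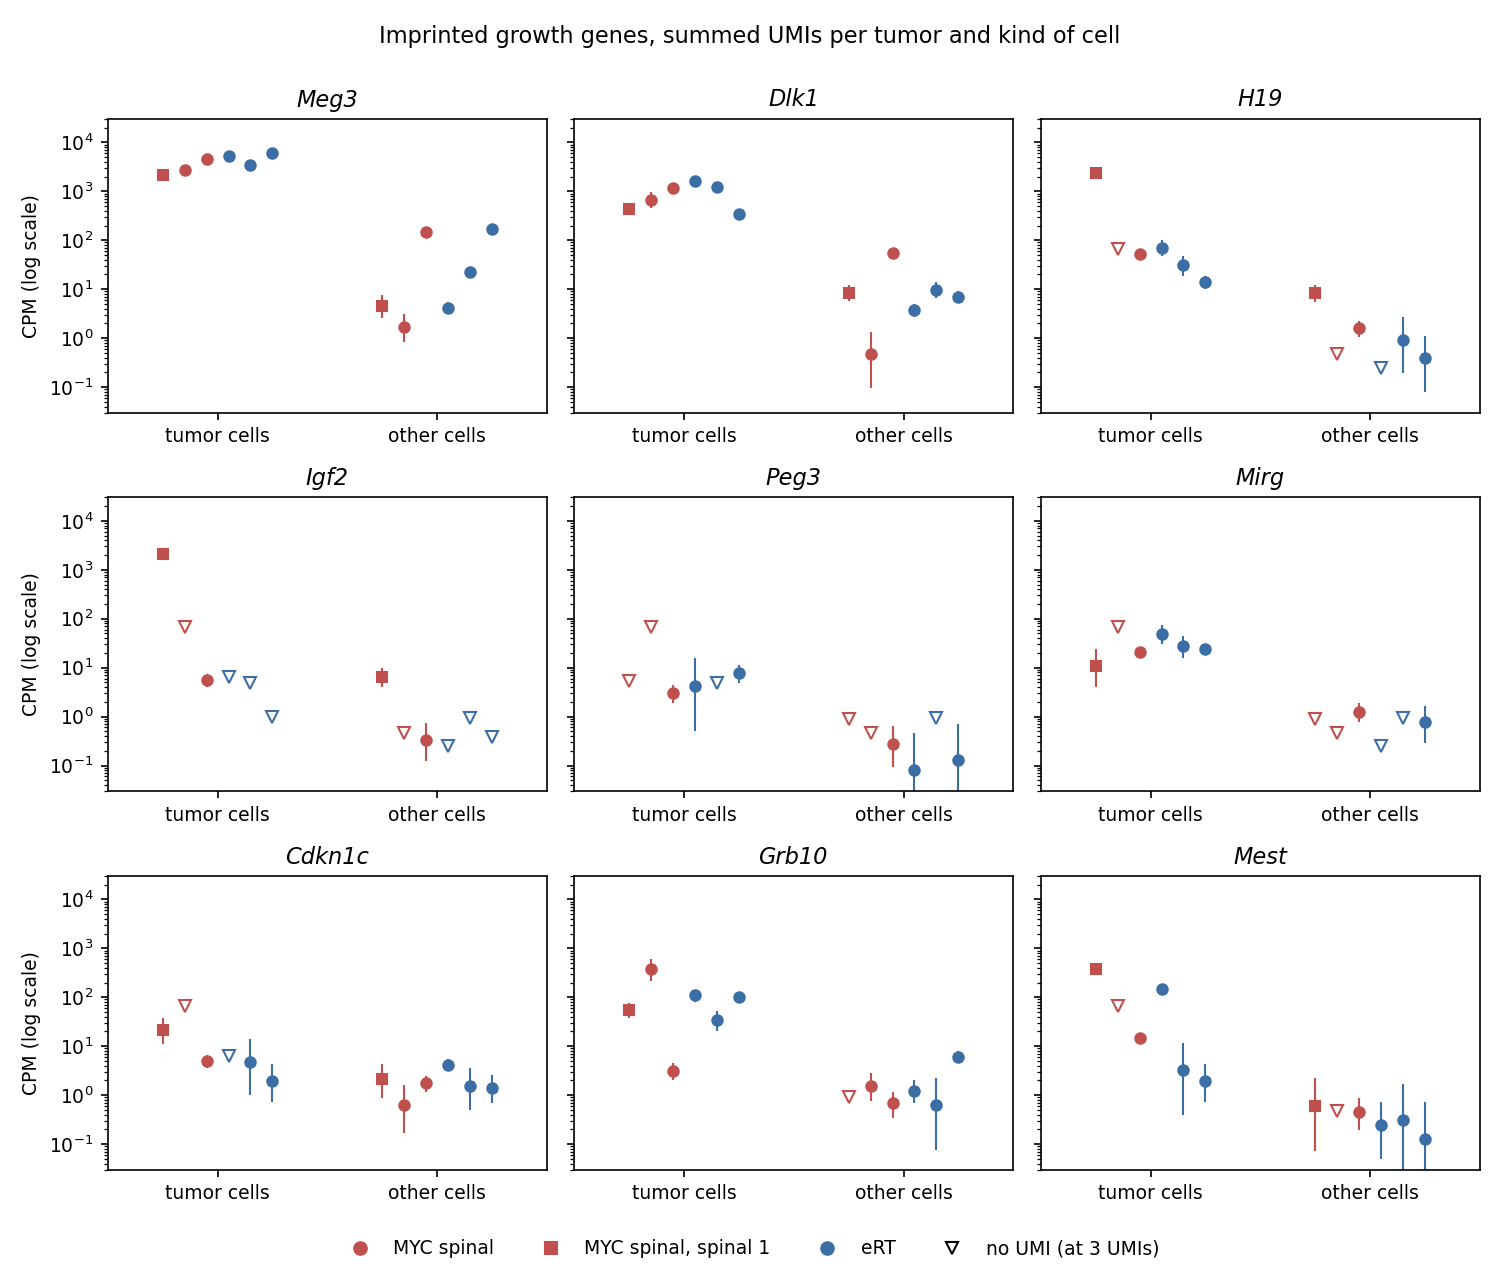
CPM (log scale) of the 9 members with UMIs in the tumor cells and other cells of each tumor, with exact 95% Poisson intervals that cover counting error. Triangles mark a count of 0 or a gene not listed, drawn at the value of 3 UMIs, which is no limit for a gene not listed. *Meg3* spans 2117 to 5941 CPM in tumor cells and 1.71 to 172 in other cells, and spinal 1 (square) stands above the other tumors for *H19* (2392 CPM) and *Igf2* (2097 CPM).

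*Meg3*, a non-coding RNA that can restrain growth, stood at 2117, 2761 and 4478 CPM in the tumor cells of spinal 1, 2 and 3 (1165, 125 and 37664 UMIs). Its level in eRT 1, 2 and 3 was 5280, 3463 and 5941 CPM (2471, 2158 and 17912 UMIs). The mean of the 6 tumors was 4006 ± 1483 CPM (SD, n = 6), and the ranges of the 2 subtypes overlapped. In other cells *Meg3* stood at 4.56, 1.71 and 147 CPM in the spinal tumors and at 4.17, 22.5 and 172 CPM in the eRT. Taken as a whole, no tumor's other cells came near the level of any tumor's tumor cells. In eRT 3, 75 fibroblast-like cells among them stood at 5180 CPM and held 1220 of the 1344 *Meg3* UMIs of its other cells. Tumor cells held 91.9% to 98.7% of all *Meg3* UMIs of their tumor.

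A UMI of *Meg3* was found in 81 of 97, 13 of 16 and 1547 of 1563 tumor cells of spinal 1, 2 and 3. In eRT 1, 2 and 3 it was found in 52 of 68, 60 of 202 and 615 of 627. With each cell thinned to 1000 UMIs, the shares were 62.9%, 69.2% and 90.3% in the spinal tumors and 69.1%, 29.8% and 95.1% in the eRT. In eRT 2 the gene was thus missing from most tumor cells although its summed level was among the other tumors' values. T-like and NK-like cells, which should lack the gene, had shares of 0.204%, 0% and 6.52% in the spinal tumors and 0%, 0% and 1.75% in the eRT at the same depth. Their median depth before thinning was 530 to 2718 UMIs. Thinning left out 3 tumor cells of spinal 2 and 21 of eRT 2, and 72, 219, 193 and 6 T-like and NK-like cells of spinal 1, spinal 2, eRT 2 and eRT 3. Counts of 0 among the 39, 91 and 375 T-like and NK-like cells of spinal 2, eRT 1 and eRT 2 allow shares of up to 7.69%, 3.30% and 0.80%.

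**Figure D2:**
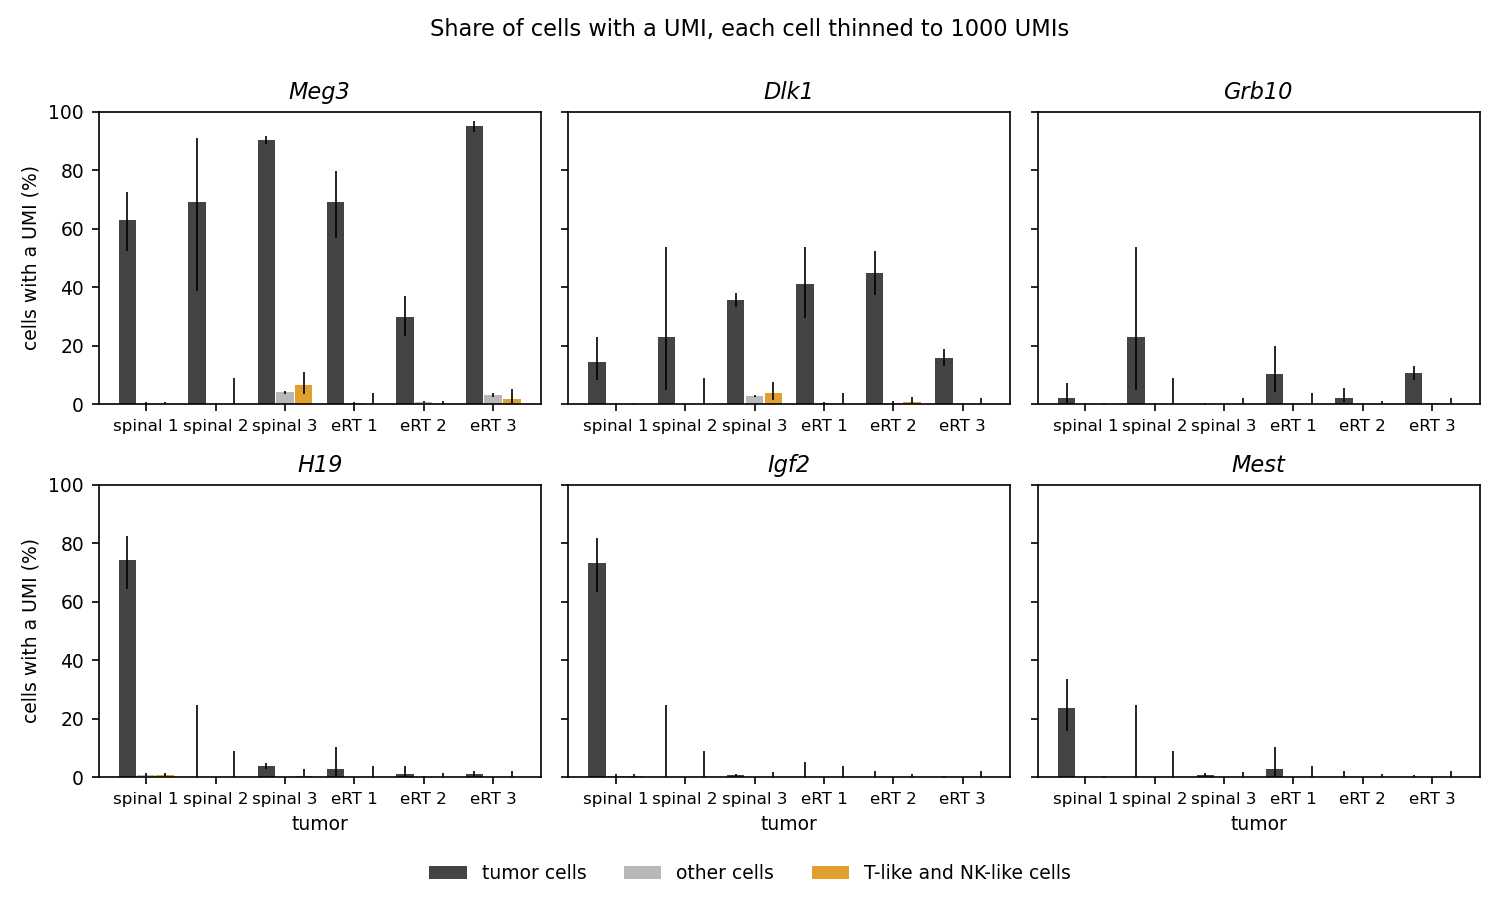
Share of cells with at least 1 UMI of 6 members, each cell thinned to 1000 UMIs, in tumor cells, other cells and T-like and NK-like cells of each tumor, with exact 95% binomial intervals. *Meg3* reaches 29.8% to 95.1% of tumor cells and *Dlk1* 14.4% to 44.8%, while *H19* and *Igf2* reach 74.2% and 73.2% of the tumor cells of spinal 1.

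*Dlk1* stood at 434, 663 and 1169 CPM in the tumor cells of spinal 1, 2 and 3 and, in eRT 1, 2 and 3, at 1624, 1208 and 352 CPM, a mean of 908 ± 503 CPM (SD, n = 6). Its lowest and its highest value were both in eRT. In other cells it stood at 8.51, 0.465 and 54.4 CPM in the spinal tumors and at 3.68, 9.85 and 7.06 CPM in the eRT. At 1000 UMIs per cell it was found in 14.4%, 23.1% and 35.5% of tumor cells in the spinal tumors and in 41.2%, 44.8% and 15.8% in the eRT, against 0% to 3.80% of T-like and NK-like cells. The order of the tumors by *Dlk1* differed from that by *Meg3*, with eRT 3 highest for *Meg3* and lowest for *Dlk1*. *Meg3* was 16.9 times as high as *Dlk1* in eRT 3 and 2.87 to 4.87 times in the other tumors.

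*H19* and *Igf2* were high in a single tumor. *H19* stood at 2392 CPM in tumor cells of spinal 1 (1316 UMIs), at 52.9 CPM in spinal 3, and, in eRT 1, 2 and 3, at 70.5, 30.5 and 13.9 CPM. It was not listed for spinal 2, where fewer than 3 cells held it, and this sets no limit in CPM. *Igf2* stood at 2097 CPM in spinal 1 (1154 UMIs) and at 5.59 CPM in spinal 3 (47 UMIs). It was not listed for spinal 2, eRT 1, eRT 2 or eRT 3, where fewer than 3 cells of each tumor held it, and this sets no limit in CPM. *H19* was found in 77 and *Igf2* in 91 of the 97 tumor cells of spinal 1, so their level there did not come from a few cells. At 1000 UMIs per cell the shares in spinal 1 were 74.2% and 73.2%, against 0.714% and 0.510% of its T-like and NK-like cells. *Igf2* was found in 76.4% of the 72 cells with *H19* and in 64.0% of the 25 cells without it.

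*Mest*, a paternally expressed gene of an enzyme-like protein of the endoplasmic reticulum, was also highest in spinal 1, at 380 CPM (209 UMIs in 55 cells). It stood at 14.7 CPM in spinal 3 and, in eRT 1, 2 and 3, at 147, 3.21 and 1.99 CPM, and was not listed for spinal 2. The value of eRT 1 rests on 2 cells, 1 of which held 38 of its 69 UMIs. *Mirg* stood at 10.9 and 21.3 CPM in spinal 1 and spinal 3 and, in eRT 1, 2 and 3, at 49.1, 27.3 and 24.2 CPM, and was again not listed for spinal 2. It was thus found in the tumor cells of the 5 tumors for which it was listed, at a level far under that of its neighbour *Meg3*.

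*Grb10*, an adaptor that restrains insulin and IGF receptor signaling, stood at 54.5, 375 and 3.09 CPM in the tumor cells of spinal 1, 2 and 3 and, in eRT 1, 2 and 3, at 109, 33.7 and 99.2 CPM. The extremes were both MYC spinal tumors, and the value of spinal 2 rests on 17 UMIs in 6 cells. *Cdkn1c*, an inhibitor of cyclin-dependent kinases also called p57, stood at 21.8 CPM in spinal 1, where all 12 UMIs were in 1 cell, at 4.99 CPM in spinal 3 and, in eRT 2 and eRT 3, at 4.81 and 1.99 CPM. No UMI was counted in spinal 2 and eRT 1, whose other cells held 0.620 and 4.17 CPM. *Peg3*, a paternally expressed zinc finger gene, reached 2.97, 4.27 and 7.63 CPM in spinal 3, eRT 1 and eRT 3, with 25, 2 and 23 UMIs, and was listed in no other tumor.

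Thus *Meg3*, *Dlk1* and *Grb10* were higher in tumor cells than in other cells in 6 of 6 tumors, *H19*, *Mirg* and *Mest* in 5, *Peg3* in 3 and *Igf2* in 2, in each case every tumor with a UMI. *Cdkn1c* was higher in tumor cells of 4 tumors and in other cells of 2. These 8 of 10 members describe the choice of the list, and by shares of cells at 1000 UMIs the number was 7. In edgeR's quasi-likelihood fit of tumor cells against other cells, 26.4% of the 9711 genes tested had an adjusted p under 0.05, 12% higher and 14.4% lower in tumor cells. Of the members, 4 passed its low count filter, *Meg3*, *Dlk1*, *H19* and *Grb10*, and no test is given for them.

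Outside the tumor clusters, *Meg3* and *Grb10* were highest in cells of eRT 3 named fibroblast-like. These 75 cells held *Meg3* at 5180 CPM, *Dlk1* and *Grb10* at 178 CPM each, *Mirg* at 17.0 CPM and *H19* at 12.7 CPM. Their cluster held 0.296 of the expected *Smarcb1* UMIs (4 UMIs), just above the limit of 0.25 for tumor clusters. In spinal 3, *Meg3* stood at 634 CPM in T-like, 573 CPM in myeloid progenitor-like and 243 CPM in osteoclast-like cells. *Dlk1* stood at 100, 219 and 80.1 CPM in the same cells. *Meg3* was 2.77 times as high as *Dlk1* in the immune-like cells of spinal 3 and 3.83 times in its tumor cells. In spinal 1 the immune-like cells held 16 UMIs of *H19*, 12 of *Meg3* and 9 of *Igf2*, the same 3 genes that led its tumor cells, where they had 1316, 1165 and 1154 UMIs. How far free RNA gave these UMIs was not tested. *H19* and *Igf2* stood at 61.7 and 67.4 CPM in 45 unnamed cells of spinal 1. *Cdkn1c* stood at 8.05 CPM in macrophage-like and at 6.87 CPM in monocyte-like cells of eRT 1, whose tumor cells had none. Between named non-immune and immune-like cells no fit was possible with the cells as kept, since 1 tumor held at least 10 named non-immune cells. With a stricter filter on cells (500 genes or more and 10% mitochondrial UMIs or less) and a new clustering, spinal 3 and eRT 3 could be fitted, and 463 of 10200 genes (4.54%) were called. There 115 cells of spinal 3 were also named fibroblast-like, in a cluster that held 0.682 of the expected *Smarcb1* UMIs. Its fibroblast markers were *Col1a1*, *Col1a2* and *Col3a1*, and *Aplp1*, *Gpm6b* and *Mag* were among its leading genes. *Meg3* stood at 2007 CPM in these cells of spinal 3 and at 5248 CPM in those of eRT 3, against 73.6 and 58.7 CPM in immune-like cells. *Dlk1* stood at 470 and 177 CPM against 40.1 and 3.60 CPM. Since the members were chosen on levels that include these cells, no test is given for them here.

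The tumor cells were not uniform in these genes. They fell into 3 clusters of each subtype (clustered separately, so that the numbers are not shared). The clustering left out the members, a list of other imprinted genes and *Smarcb1*, and the differences between clusters are given as a description. In eRT 2, *Meg3* stood at 32.0 CPM (9 UMIs) in the 145 cells of cluster 10, led by *BC048546*, *Ctla2a* and *Gap43*. In the 52 cells of cluster 3, led by *C1qtnf3*, *Igfbp3* and *Efemp1*, it stood at 5295 CPM (1588 UMIs). The remaining 5 cells, of cluster 18, held 561 of the 2158 *Meg3* UMIs of this tumor (13191 CPM), and 506 of these were in 3 cells scored G1. *Dlk1* hardly differed between the larger clusters, at 1310 CPM in cluster 10 and 1130 CPM in cluster 3. Its neighbour *Mirg* had no UMI in the cluster 10 cells of eRT 2 and 40.0 CPM in cluster 3. In eRT 1 and eRT 3 *Meg3* was also lower in cluster 10, at 1090 and 2617 CPM, than in cluster 3, at 6789 and 6498 CPM.

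In spinal 3 *Dlk1* stood at 2341 CPM in the 824 cells of cluster 3, 371 CPM in the 642 cells of cluster 8 and 395 CPM in the 97 cells of cluster 21. *Dlk1* and *H19* were among the 10 leading genes of cluster 3, ranked after a clustering that used neither gene. *Meg3* differed less, at 6504, 2963 and 4035 CPM. Cluster 21 held all *Grb10* UMIs of the tumor cells of spinal 3 (39.5 CPM, against 0 in both others). It also had the highest *H19*, *Mest* and *Igf2* of this tumor, at 144, 118 and 45.5 CPM. In spinal 1 *Igf2* was level between its clusters, at 2099 CPM in 88 cells and 2081 CPM in 9 cells.

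**Figure D3:**
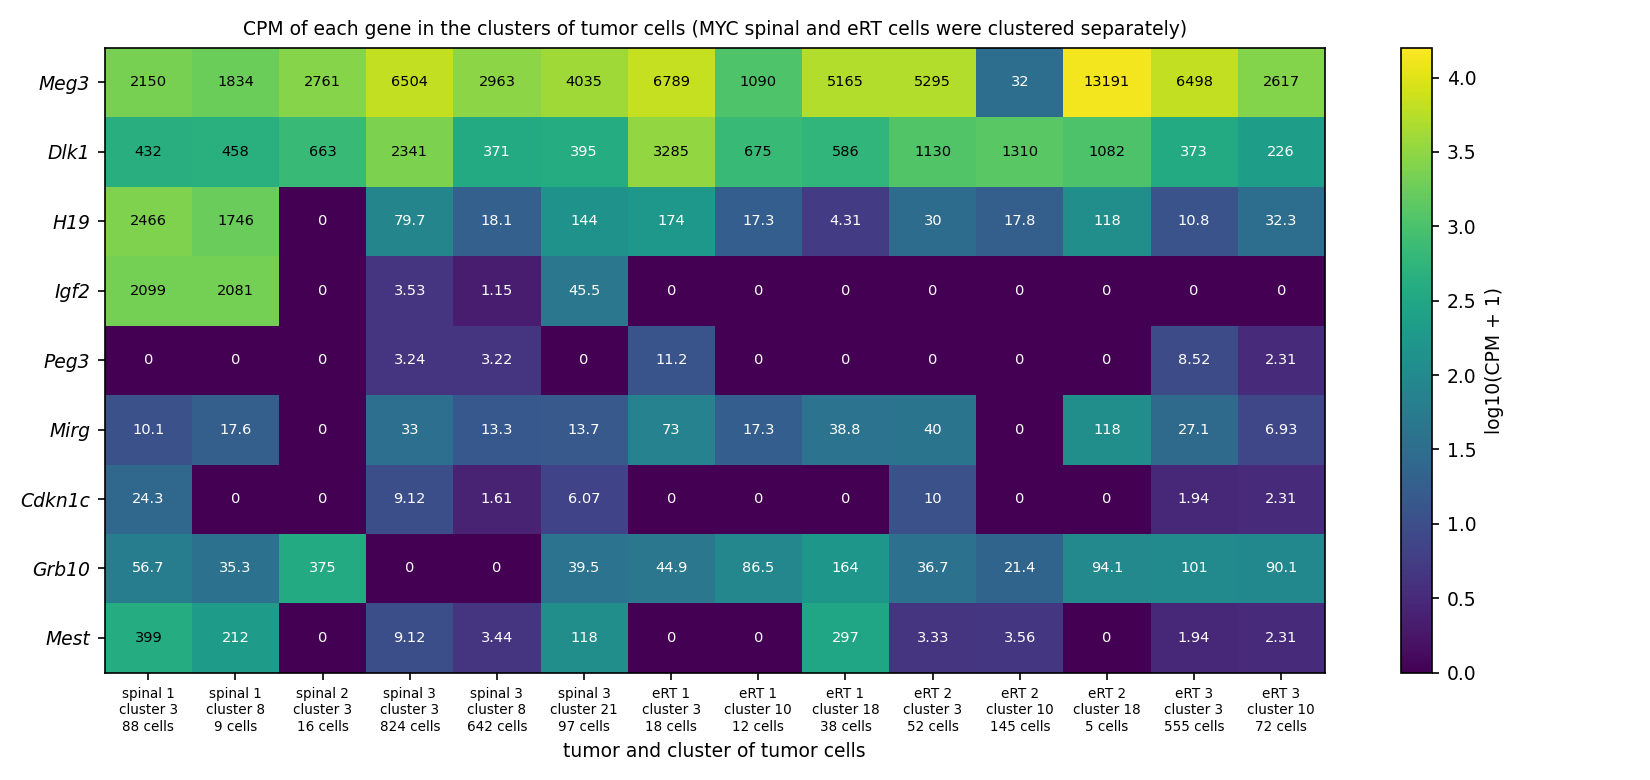
CPM of the 9 members (rows, number in each cell, color on a log10 scale of CPM + 1) in the clusters of tumor cells of each tumor (columns, with the number of cells). In eRT 2 *Meg3* falls from 5295 CPM in cluster 3 to 32.0 CPM in cluster 10, with 13191 CPM in the 5 cells of cluster 18, while *Dlk1* stays at 1130 and 1310 CPM, and *H19* (2466 and 1746 CPM) and *Igf2* (2099 and 2081 CPM) are highest in the clusters of spinal 1.

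Whether the 2 subtypes differed in these genes was tested on the tumor-cell UMIs summed per tumor, 3 eRT against 3 MYC spinal. EdgeR's quasi-likelihood test was run on 5721 genes and called 0 (0%) at an adjusted p under 0.05, with 189 at an unadjusted p under 0.05, and DESeq2 called 18, no member among them. For *H19*, DESeq2 gave no p-value. Of the 10 members, 5 passed the low count filter and none was called. On simulated counts the edgeR test recovered 14.9% of 4-fold changes, so 0 calls do not show that the subtypes were alike. The log2 difference, eRT minus MYC spinal, was 0.92 for *Meg3* (SE 0.54) and 0.77 for *Dlk1* (SE 0.68), with edgeR adjusted p = 0.99997 for both. *Mirg* was higher in eRT by 1.29 (SE 0.55) and *H19* lower, at -4.03 (SE 1.64), both with an unadjusted p under 0.05 and an adjusted p of 0.99997 in edgeR. Without spinal 1 the *H19* difference was -0.00098, so its size rests on that tumor. *Grb10* differed by -0.15 (SE 1.37), and by 2.07 without spinal 2, the tumor with 16 tumor cells. With the mouse model as a covariate, the differences were 0.77 for *Meg3*, 1.10 for *Dlk1*, 1.63 for *Mirg*, -3.33 for *H19* and 0.04 for *Grb10*.

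A contrast within tumors set tumor cells scored S or G2/M by their cell cycle genes against those scored G1. *Meg3* was lower in the cells scored S or G2/M in 6 of 6 tumors. It stood at 1773, 1853 and 2736 CPM in these cells and 2458, 3588 and 5571 CPM in G1 cells of spinal 1, 2 and 3. In eRT 1, 2 and 3 the cells scored S or G2/M had 3246, 1011 and 4890 CPM and the G1 cells 5971, 4844 and 6653 CPM. All tumors fell, from 0.735 times the G1 level in eRT 3 to 0.209 times in eRT 2. In the 5 tumors with at least 10 cells of both parts, the log2 difference was -0.97 (SE 0.18), with edgeR adjusted p = 0.00672 over 4024 genes.

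Of the 10 members, 4 were tested in this contrast and *Meg3* alone was called, in a background of 168 genes called (4.17%), 121 higher (3.01%) and 47 lower (1.17%). *Dlk1* differed by -0.34 (SE 0.18, edgeR adjusted p = 0.315), *H19* by 0.32 (SE 0.26, edgeR adjusted p = 0.519) and *Grb10* by 0.12 (SE 0.19, edgeR adjusted p = 0.772). *Mirg* did not pass the low count filter. With every gene with at least 1 UMI tested, where 3.37% of 15509 genes were called and 1.01% were lower, it was called lower at -0.82 (SE 0.25, edgeR adjusted p = 0.0333). In the 3 fits with a tumor left out in which it was tested, it was -0.90 to -0.76, with edgeR adjusted p of 0.0559 to 0.0947. *Dlk1* was lower in the cells scored S or G2/M in 4 of 6 tumors and higher in spinal 1 and eRT 3. The call of *Meg3* was lost without spinal 3, at -0.98 with an edgeR adjusted p of 0.0591. Without eRT 2, where the clusters differed most, it held at -0.73, with an edgeR adjusted p of 0.000490. Clusters differed in their share of cells scored S or G2/M, from 13.2% to 77.8%. Within the clusters of a tumor with at least 10 cells of both parts, *Meg3* was lower in the cells scored S or G2/M in 7 of 8, the exception being cluster 10 of eRT 2 with 9 UMIs.

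The phase comes from a score, and 1284 of the 2573 tumor cells (49.9%) had a highest score within 0.05 of the limit of 0. The median depth of the cells scored S or G2/M and of G1 cells was 5669 and 5690 UMIs in spinal 1, 4239 and 2373 in spinal 2 and 5629 and 4369 in spinal 3, and 5641 and 6313 in eRT 1, 1877 and 2181 in eRT 2 and 4504 and 4447 in eRT 3. The cells scored S or G2/M were the deeper ones in spinal 2, spinal 3 and eRT 3, and the part of depth in the *Meg3* values was not tested.

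**Figure D4:**
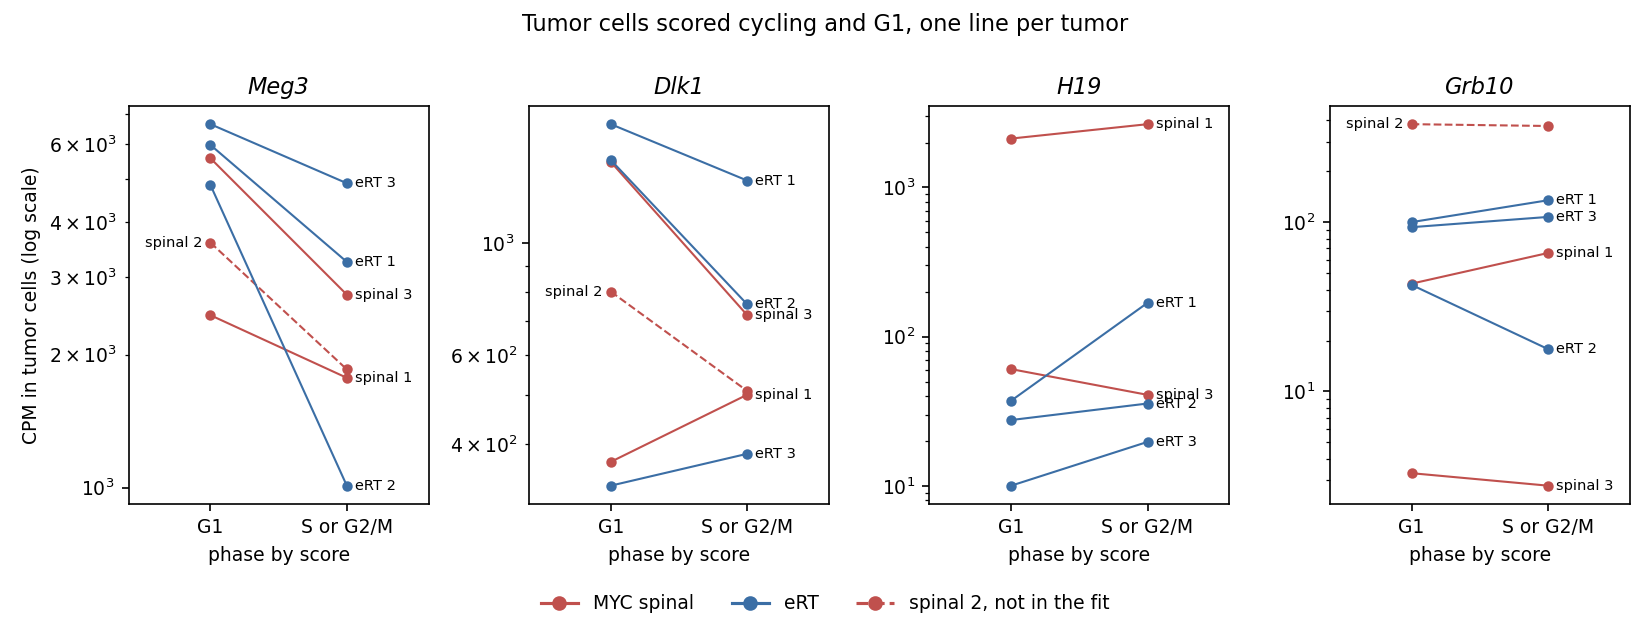
CPM (log scales, differing between panels) of 4 members in tumor cells scored G1 and S or G2/M, 1 line per tumor. The dashed line is spinal 2, which had 5 cells scored S or G2/M and was left out of the fit. All 6 lines fall for *Meg3*, in eRT 2 from 4844 to 1011 CPM, while those of *Dlk1*, *H19* and *Grb10* run both ways.

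To place the members among related genes, 3 lists were set beside them in the fit of tumor cells against other cells of the 6 tumors. Of 36 other imprinted genes, 31 were in a table, 16 passed the low count filter and 7 were called, all higher in tumor cells (12% of all genes tested were called higher and 14.4% lower), with a median log2 difference of 1.03 against -0.03 over all genes tested. The retrotransposon-derived *Peg10* was higher by 5.72 (SE 0.73, edgeR adjusted p = 0.000323) and its neighbour *Sgce*, a sarcoglycan, by 5.01 (SE 0.44, edgeR adjusted p = 8.09e-05). *Ndn*, which encodes necdin, was higher by 4.75 (SE 0.49, edgeR adjusted p = 0.000117) and the splicing factor gene *Snrpn* by 4.58 (SE 0.68, edgeR adjusted p = 0.00109). Their mean levels in tumor cells were 47.9, 79.7, 57.2 and 28.5 CPM, in the same order, far under those of *Meg3* and *Dlk1*. The rule for named genes asked for 1 direction in every tumor with a UMI, here 6 tumors, or 5 for *Snrpn*.

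Of 23 genes of the IGF and DLK1 pathways, 13 were tested and 2 were called, both higher in tumor cells, a share near that of all genes, with a median log2 difference of 0.99. These were *Igfbp3*, a secreted protein that binds IGF, at 5.63 (SE 0.79, edgeR adjusted p = 0.000777), and *Hmga2*, a chromatin protein of embryonic cells, at 5.28 (SE 0.81, edgeR adjusted p = 0.000931). The receptor genes *Igf1r*, *Insr*, *Notch1* and *Notch2* were not called. The list of 13 genes of imprint maintenance also held genes that remove DNA methylation. Of these 13, 7 were tested and 3 were called, all lower in tumor cells against 14.4% of all genes, with a median of -0.59. *Dnmt3a*, a DNA methyltransferase, was lower at -2.19 (SE 0.39, edgeR adjusted p = 0.00212) and *Tet3*, a dioxygenase that removes DNA methylation, at -1.37 (SE 0.31, edgeR adjusted p = 0.00923). The third called gene, *Tet2* (-1.70), fell outside the rule for named genes. *Dnmt1*, *Uhrf1*, *Trim28* and *Ctcf* were tested and not called. The tumor cells carried more fibroblast markers than the mostly immune other cells, and their part in these differences was not tested. Between the subtypes 15, 7 and 4 genes of the 3 lists were tested, and between cells scored S or G2/M and G1 10, 5 and 2, with 0 called in edgeR.

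**Figure D5:**
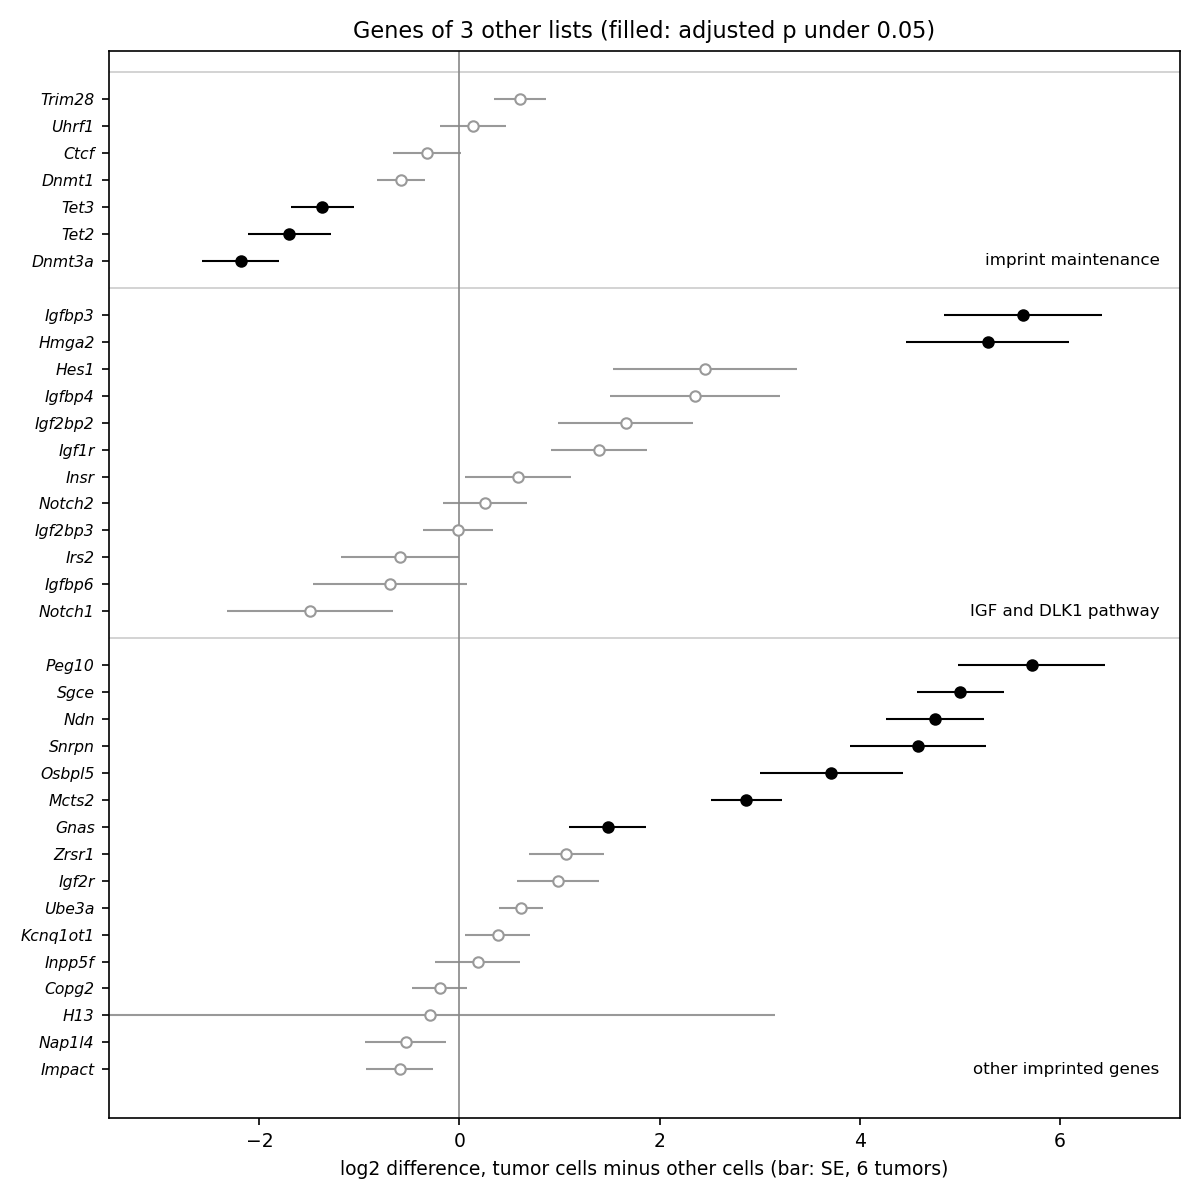
Log2 difference of the tested genes of the 3 lists, tumor cells minus other cells, with SE over 6 tumors (filled, adjusted p under 0.05 in edgeR). *Igf2r*, which is on 2 lists, is drawn once, and the bar of *H13* runs past the axis. The 7 called imprinted genes lie right of 0 and the 3 called genes of the imprint maintenance list (*Dnmt3a*, *Tet2* and *Tet3*) left of it.

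Over the 12 values of tumor cells and other cells of the 6 tumors, the genes most like *Meg3* by log2(CPM + 10) among 4327 were *Rras* (Pearson's r = 0.979), *Ddah2* (0.979) and *Col1a2* (0.971). For *Dlk1* they were *Rbfox2* (0.953), *Meg3* itself (0.95) and *Ddah2* (0.948). The correlations describe these values, which share libraries and the step between tumor cells and other cells. *H19* was nearest to *Hmgn3*, *Rbbp7* and *Nbl1* (0.933, 0.930 and 0.915), and *Grb10* to the collagen genes *Col6a1*, *Col1a1* and *Col5a2* (0.942, 0.929 and 0.922). *Mirg* was nearest to *Rps6kb1*, *Klhdc8a* and *Fyttd1* (0.952, 0.938 and 0.938), *Cdkn1c* to *Rcl1*, *Pttg1* and *Isca2* (0.893, 0.884 and 0.867) and *Mest* to *Ctnnb1*, *Timm21* and *Chmp2b* (0.933, 0.907 and 0.890). The highest *Cdkn1c* value, 21.8 CPM in spinal 1, came from a single cell, and its correlations lean on that value.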

How the data were processed

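The data were single-cell RNA libraries of 3 MYC spinal tumors and 3 eRT, 1 table each, named by subtype and replicate. Live (7-AAD-negative) cells had been sorted and libraries made with the 10x Genomics 3′ v2 kit. The authors aligned reads to mm10 with Cell Ranger 2.0.2 and deposited raw UMI counts, with genes seen in under 3 cells and cells with under 50 genes left out. The members and the gene lists were chosen with earlier results of these data known.

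The cells kept had 200 genes or more and 25% mitochondrial UMIs or less. Within each subtype the tumors were integrated with Seurat 5.3.0 anchors on 2000 variable genes and clustered on 30 dimensions with 20 neighbors at resolution 0.8. *Smarcb1*, the members and the list of other imprinted genes were left out of these 2000 genes. A cluster took a cell type's name, written as "-like", from 3 or more of its markers, each in 10% or more of the cells and raised by 1 or more in log2. Tumor cells were the clusters whose *Smarcb1* UMIs fell short of 0.25 times the number expected at the rate of immune-like cells of the same tumors, where 10 or more were expected. The cells of spinal 2 in a tumor cluster that carried *Smarcb1* UMIs as a group, 225 in all, were put among the other cells after the data had been seen. Doublets were not sought. Phases of the cell cycle came from Seurat's gene lists in mouse case, scored tumor by tumor. No cell column was identical between tables, and per-sample columns not used number 0.

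UMIs were summed per tumor and kind of cell (at least 10 cells) and are given as CPM. Genes not in a tumor's table count as 0. Intervals are exact at 95% (Poisson for CPM, binomial for shares) and, like the limit of 3 counts for a count of 0, cover counting error only. The limit of 3 counts holds for genes listed for a tumor, not for those left out as seen in under 3 cells. Sums were compared with edgeR 4.0.16 in R 4.3.3 (TMM, filterByExpr with a minimum count of 10, quasi-likelihood test, Benjamini-Hochberg adjustment over all genes tested, threshold 0.05), with the tumor as a block where both kinds come from the same mouse. Standard errors were derived from the log2 difference and its p-value. The smallest group was 3 tumors, each 1 mouse. Tests were checked on simulated counts with 200 genes changed. Of 4-fold and 8-fold changes, 14.9% and 60.5% were recovered between the subtypes, with 8 of 70 calls false. Between tumor cells and other cells 90% and 98.9% were recovered, with 16 of 187 calls false. Between cells scored S or G2/M and G1 it was 100% of both, with 12 of 180 calls false. Alternatives were DESeq2 1.42.0, library sizes without TMM factors, every gene with at least 1 UMI, a stricter filter on cells (500 genes or more, 10% mitochondrial UMIs or less), resolutions 0.4 and 1.6, each tumor left out in turn, no block, the mouse model as a covariate, G2/M cells alone, immune-like cells alone and, chosen later with the data in view, the tumor clusters as clustered. Named genes were the members, of each list up to 4 called genes with the largest change and 1 direction in every tumor with a UMI, and for each member found in at least 4 tumors the 3 genes with the highest correlation, among those whose mean log2(CPM + 10) was 5 or more. Sequences are from RefSeq tables of GRCm38.p6 and gene positions from a GRCm38 annotation.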

Additional observations from a re-analysis of the deposited data

Results flagged for a closer look

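Taking the 6 tumors of both subtypes together, 1 tumor stood apart from the 5 others in 4 of 9 members, by the gap to its neighbour relative to the whole range (Dixon's ratio). For normally distributed values, chance flags about 1 in 20 groups. These CPM values are uneven, some tumors had no UMI of a member, and the members were chosen on the same UMI counts. The number flagged therefore cannot be set against that rate and is given as a description. *H19* was 2392 CPM in tumor cells of spinal 1, against 70.5 CPM in the next tumor (ratio 0.971), and *Igf2* was 2097 CPM in spinal 1, against 5.59 CPM in the next (ratio 0.997). *Cdkn1c* was 21.8 CPM in spinal 1, all of it in 1 cell, against 4.99 CPM in the next tumor (ratio 0.771). *Grb10* was 375 CPM in spinal 2, with 17 UMIs in 16 tumor cells, against 109 CPM in the next tumor (ratio 0.716). The critical ratio is 0.625 for 6 tumors, and *Mest* in spinal 1 came close to it (380 CPM, ratio 0.612).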

How the results depend on the processing

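Without spinal 1 the mean level in tumor cells, over tumors, fell from 427 to 33.6 CPM for *H19* and from 350.5 to 1.12 CPM for *Igf2*. The 117 alternatives for named genes of the lists kept direction and call. The number of genes called between the subtypes was 0 in edgeR under every alternative and 18 in DESeq2. For cells scored S or G2/M against G1, 168 genes were called, against 523 with every gene with at least 1 UMI (15509 tested), 77 with the stricter cell filter, 53 to 306 with a tumor left out (lowest without spinal 3, highest without eRT 2, 82 without eRT 3 and 258 without eRT 1) and 24 with no replicate block. Kinds of cells from the same mouse are paired by design. Without the block, *Meg3* kept its difference (-0.95) but not its call (unadjusted p = 0.0647), and 2181 genes were called between tumor cells and other cells, against 2561 with it. *Mirg* was called only with every gene tested (-0.82). The *Meg3* call was also lost without spinal 3 (-0.98). *Grb10* between the subtypes changed sign, from -0.15 to 0.038 with every gene, 0.043 with the mouse model as a covariate, 0.93 with the tumor clusters as clustered, and -0.93 to 2.07 with a tumor left out (0.12 without eRT 2). *H19* in cells scored S or G2/M was -0.014 with the stricter cell filter. The causes were not tested. Without TMM factors the median log2 difference of all genes moved from 0.05 to -0.30 between the subtypes and from -0.03 to 0.15 between tumor cells and other cells, where 1530 genes were then higher and 1145 lower, against 1166 and 1395. For named non-immune against immune-like cells the alternatives were not run, except that the stricter cell filter gave 2 tumors and called 463 of 10200 genes. Tumor cells numbered 16 in spinal 2, so a listed member with a count of 0 there may stand at up to 66.3 CPM.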
